A study of Mus musculus with 12 samples.

Results

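The lipid-associated macrophage genes *Apoe*, *Abca1*, *Abcg1*, *Nr1h3*, *Trem2*, *Gpnmb*, *Lpl*, *Cd36*, *Fabp4* and *Plin2* were chosen by their symbols, as genes of lipid efflux, uptake and storage and of the TREM2 programme. All 10 were among the 37775 genes of the count table, and all 10 were among the 22118 genes that passed the expression filter. They were read in 4 fractions of monocyte-macrophage lineage cells (Mo-Macs), with 3 libraries per fraction. The fractions were sorted by FACS, within a CD45+CD11b+SiglecF-Ly6G- gate, from the IgE-CAI skin lesion 5 days after challenge in male BALB/c mice (WT). IgE-CAI is a mouse skin allergy model. The mice had received 300 μg of anti-TNP IgE intravenously and, on the next day, 10 μg of TNP-OVA in the ear skin, and all 4 fractions shared this treatment, so that no fraction came from unchallenged skin. The fractions were Ly6ChiPD-L2lo classical monocytes, Ly6ChiPD-L2hi early CMDMs (classical monocyte-derived macrophages), Ly6CloPD-L2hi late CMDMs and Ly6CloPD-L2lo resident-like macrophages. Each library was made by oligo(dT) capture from 5000 to 80000 sorted cells. How many mice gave each library is not given in the sources used here, so that p-values measure the spread between these libraries, which may be partly technical.

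Macrophages that take up dead cells acquire their cholesterol and fatty acids and must store or export them. Cholesterol derivatives activate the liver X receptors, of which LXRα is the product of *Nr1h3*, and these receptors switch on the transporters ABCA1 and ABCG1, which load cholesterol onto apolipoproteins such as ApoE. CD36 and lipoprotein lipase bring fatty acids to the cell, FABP4 binds them in the cytosol, and perilipin 2 coats the lipid droplets in which they are stored. TREM2 is a surface receptor for lipids and apolipoproteins that signals through the adaptor DAP12, and GPNMB is a glycoprotein of lysosomes found in many lipid-laden macrophages.

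The libraries held 12537178 to 19844113 counts, and the members had between 78 counts (*Nr1h3*) and 123184 counts (*Apoe*) in a single library, far above the 3 counts that a count of 0 allows. Levels are given as CPM, counts relative to the library size scaled by TMM, a normalization that sets most genes equal between fractions. The differences are log2 fold changes with their standard errors (SE), from edgeR's quasi-likelihood test on all 12 libraries with Benjamini-Hochberg adjustment over the 22118 genes, and a gene was called at an adjusted p under 0.05. The macrophage gene *Csf1r* was found in all fractions, with 301 to 534 CPM in classical monocytes, 291 to 497 CPM among early CMDMs, 841 to 907 CPM in late CMDMs and 680 to 810 CPM in resident-like macrophages. Other monocyte and macrophage genes did not stay level from classical monocytes to early CMDMs. *Lyz2* (-1.72), *Itgam* (-1.15) and *Fcgr1* (-0.81) were called lower in early CMDMs, while *Csf1r* (-0.01), *Adgre1* (0.03) and *Cd68* (-0.29) were not called. Of the sort markers, *Ly6c2* had 379 to 606 CPM in classical monocytes, with 44.1 to 53.5 CPM for early CMDMs, above the 15.9 to 21.9 CPM of the Ly6Clo fractions, and *Pdcd1lg2*, which encodes PD-L2, was higher in every PD-L2hi than in every PD-L2lo library. *Ptprc*, which encodes CD45, the leukocyte antigen of the gate, was lowest in early CMDMs, at 96.7 to 133 CPM against 667 to 766 CPM in classical monocytes. The 6 keratinocyte markers read (*Krt5*, *Krt14*, *Krt1*, *Krt10*, *Krt15* and *Dsp*) summed to 17068 to 27241 CPM among early CMDMs and to 1868 to 4044 CPM over the other libraries, and none of the 6 was at 0 throughout a fraction. In bulk samples, fewer cells of a type and less RNA per cell cannot be told apart.

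Scaling each library by 10 leukocyte genes in place of TMM moved all genes together. The median of all tested genes then stood at 1.73 in early CMDMs against classical monocytes, -0.87 in late against early CMDMs and -0.70 in resident-like macrophages against late CMDMs. The directions below are therefore those relative to the median tested gene, which was within 0.03 of 0 under TMM in every comparison. A scaling shifts all genes by about the same amount, so that the members keep their place relative to the median gene by construction (within 0.0494 here), and this is no support for a direction. Read against 0, the leukocyte scaling turned the sign of several of them, as given beside each group. It is a relative scale too. The mean log2 CPM of the 10 leukocyte genes was 6.47 to 7.08 in early CMDMs and 8.46 to 8.52 in classical monocytes. Neither scale rests on a count of cells, so the signs are not changes per cell.

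Late CMDMs held the highest mean level of 6 of the 10 genes, namely *Apoe*, *Abca1*, *Abcg1*, *Nr1h3*, *Trem2* and *Plin2*. Resident-like macrophages were highest for *Lpl* and *Cd36*, and early CMDMs for *Fabp4* and *Gpnmb*. Early CMDMs also held the lowest mean of 6 genes, *Abca1*, *Abcg1*, *Nr1h3*, *Lpl*, *Cd36* and *Plin2*. The ratio of the highest to the lowest fraction mean ran from 1.56 for *Nr1h3* to 5.56 for *Fabp4*. Of the 10 genes, 9 were called in at least 1 of the 6 comparisons between fractions, and *Gpnmb* was called in none. Single comparisons called 10.8% to 24.2% of all tested genes higher and 12.9% to 25.1% lower. The share of all genes called at least once was not counted, so the 9 are no trait of the members.

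**Figure D1:**
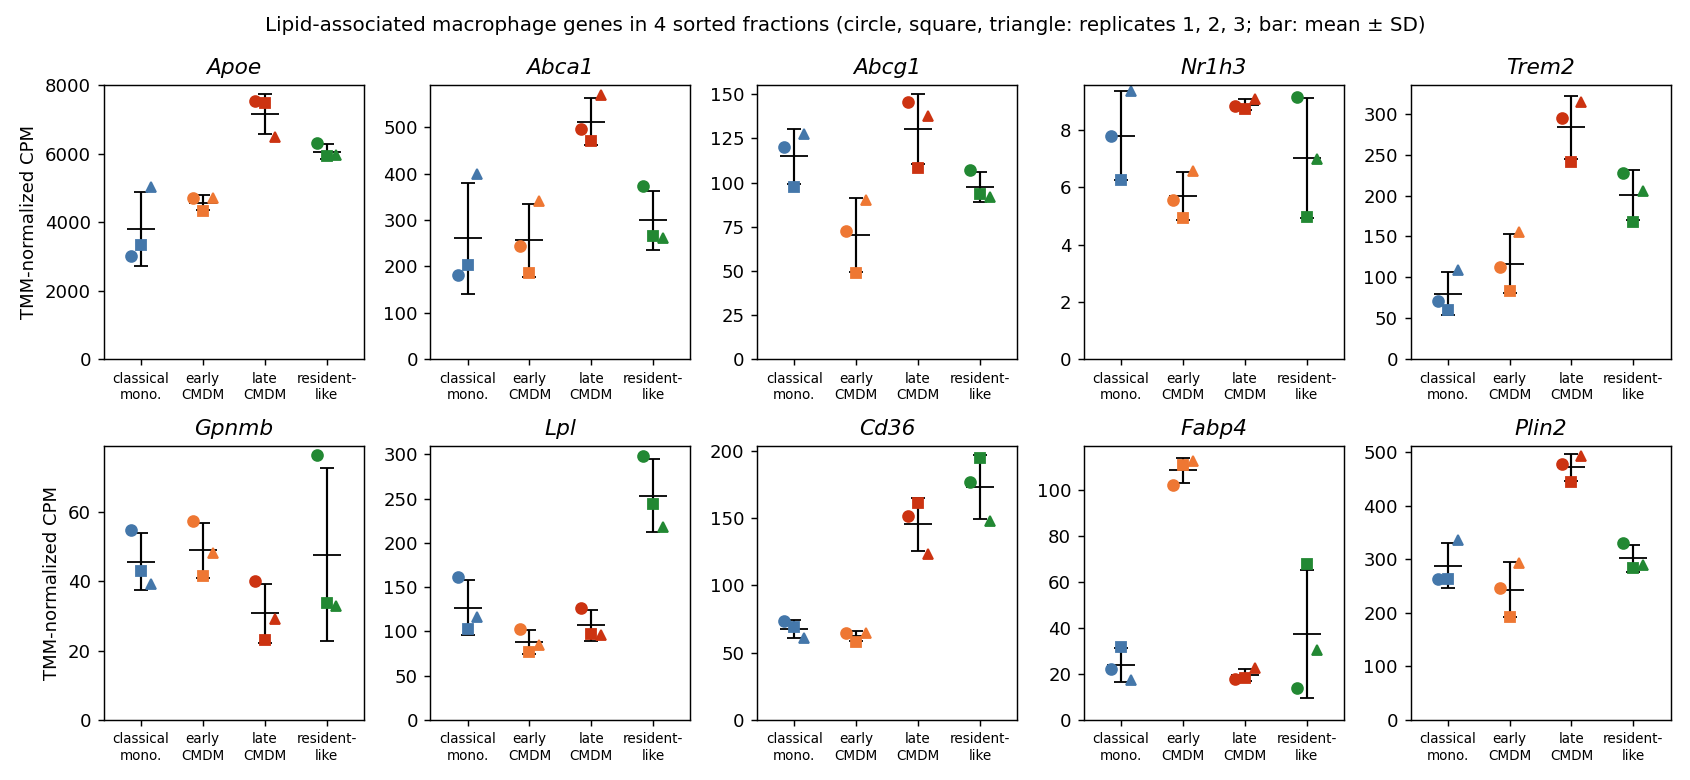
TMM-normalized CPM of the 10 genes (vertical axes from 0, each on its own scale) in the 3 libraries of each fraction, with the replicate marked by the symbol and the mean ± SD by the bar. Late CMDMs stand above early CMDMs in all 3 libraries for 7 genes and below for 2, beside 5107 and 5725 of the 22118 tested genes. *Fabp4* stands apart in early CMDMs, at 102 to 113 CPM. Under the leukocyte scaling the late minus early difference of *Apoe* and *Nr1h3* turns below 0.

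The step from early to late CMDMs, the CMDM fractions of high and low Ly6C, asked how the programme differs between them. In it 7 genes rose, *Trem2*, *Cd36*, *Abca1*, *Plin2*, *Abcg1*, *Apoe* and *Nr1h3*, by 1.56-fold to 2.43-fold, and *Fabp4* fell, while *Lpl* (0.28) and *Gpnmb* (-0.68) did not pass the test. Of all tested genes 14.4% were called higher and 17.5% lower in this comparison. The median log2 fold change of the 10 genes was 0.77, beside 0.02 over all tested genes. On the leukocyte scale *Trem2* remained called higher, at 0.43. There *Cd36* (0.33), *Abca1* (0.15), *Plin2* (0.09) and *Abcg1* (0.04) did not pass the test, and *Apoe* (-0.25) and *Nr1h3* (-0.23) turned. Macrophage genes moved with the members: *Csf1r* rose by 1.14, *Adgre1* (F4/80) by 1.21 and *Cd68* by 1.22, *Ptprc* rose by 0.80, and the summed keratinocyte markers went from 22707 ± 5175 CPM to 3285 ± 308 CPM (SD, n = 3), with 6 of 6 called lower. The fibroblast markers (*Col1a1*, *Col1a2*, *Col3a1*, *Dcn*, *Lum* and *Pdgfra*) went from 3787 ± 696 to 484 ± 12.1 CPM, with 6 of 6 lower, and the lymphatic endothelial markers (*Prox1*, *Flt4*, *Ccl21a*, *Mmrn1* and *Pdpn*) from 114 ± 26.1 to 323 ± 42.7 CPM, with 5 of 5 higher. Of the sebocyte markers 1 of 5 was higher and of 4 tested melanocyte markers 0 were called, with melanocyte sums of 10.6 to 16.1 CPM over all libraries. Of 5 tested adipocyte markers 4 were lower and 0 higher, and of 6 vascular endothelial markers 2 were lower and 0 higher. None of the fibroblast, lymphatic or sebocyte markers was at 0 throughout a fraction. Their part in the result was not tested.

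**Figure D2:**
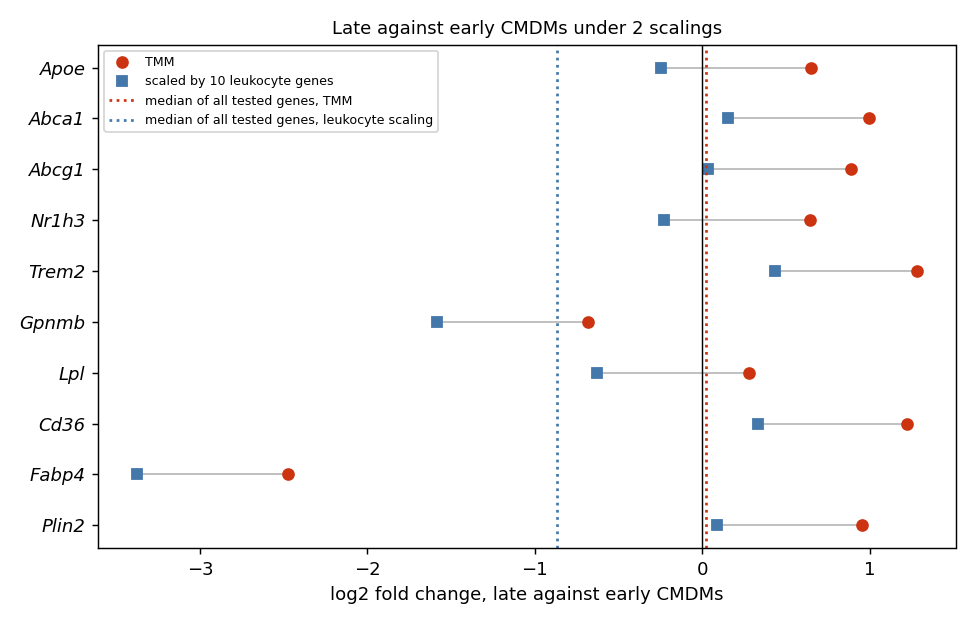
Log2 fold change of each gene in late against early CMDMs under TMM (circles) and under scaling by 10 leukocyte genes (squares), with the median of all tested genes under each as a dotted line. The leukocyte scaling moves every gene to the left with the median, to -0.87, and *Apoe*, *Nr1h3* and *Lpl* cross 0, while 8 of the 10 genes lie to the right of the median gene under both, as a common shift must leave them.

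Between classical monocytes and early CMDMs, the PD-L2lo and PD-L2hi fractions of high Ly6C, 1 gene rose and 2 fell. *Fabp4* rose 4.55-fold, and *Abcg1* and *Lpl* fell by 0.71 and 0.53 on the log2 scale. The shares of all tested genes were 24.2% higher and 20.6% lower, and the median of the 10 genes was -0.07, beside -0.01 over all genes. On the leukocyte scale all 10 were called higher in early CMDMs, beside 20165 of the 22118 tested genes higher and 465 lower. The median of the 10 genes was then 1.65, below the 1.73 of the median gene. Without classical monocyte replicate 3, which had the highest *Apoe*, *Abca1* and *Trem2* of its fraction, 5 genes were called, *Apoe* (0.52) and *Trem2* (0.84) among them. Of 22582 tested genes that fit called 5010 higher and 4088 lower. With all libraries, 6 of 6 keratinocyte markers were called higher in early CMDMs and 0 of 6 fibroblast markers were called. Of the lymphatic endothelial markers 4 of 5 were higher, and of the vascular endothelial markers 4 of 6, with 1 lower. Their part in the members' changes was not tested.

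Between late CMDMs and resident-like macrophages, the PD-L2hi and PD-L2lo fractions of low Ly6C, *Lpl* was higher in resident-like macrophages and *Plin2* was lower. Of all tested genes 12.7% were called higher and 15.5% lower. The median of the 10 genes was -0.29, beside 0.00261 over all genes. The leukocyte scaling called 7 lower and *Lpl* higher, with the median gene at -0.70. Over all 22118 tested genes it called 13566 lower and 576 higher. The libraries of *Apoe*, *Abca1*, *Abcg1* and *Trem2* did not overlap either and were all lower in resident-like macrophages, at -0.24, -0.77, -0.42 and -0.50. These changes did not pass the test. Such non-overlap was frequent, as 4929 of the 22118 tested genes had all resident-like libraries lower and 4609 had all higher. In a fit of the 6 libraries of this comparison alone 5 genes were called, *Abca1*, *Abcg1* and *Trem2* among them. Of 20856 tested genes that fit called 2968 higher and 3644 lower. *Abca1* was called without classical monocyte replicate 3 (-0.77) and *Abcg1* without early CMDM replicate 2 (-0.41). Scaling by library size called both, at -0.90 and -0.55. Markers of other cells moved as well, with 5 of 5 lymphatic endothelial markers lower in resident-like macrophages (323 ± 42.7 to 71.6 ± 6.13 CPM, SD, n = 3), 4 of 5 sebocyte markers lower, 4 of 6 vascular endothelial markers lower and 1 higher, and 3 of 6 each of the keratinocyte and fibroblast markers lower. Their part in the members' changes was not tested.

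**Figure D3:**
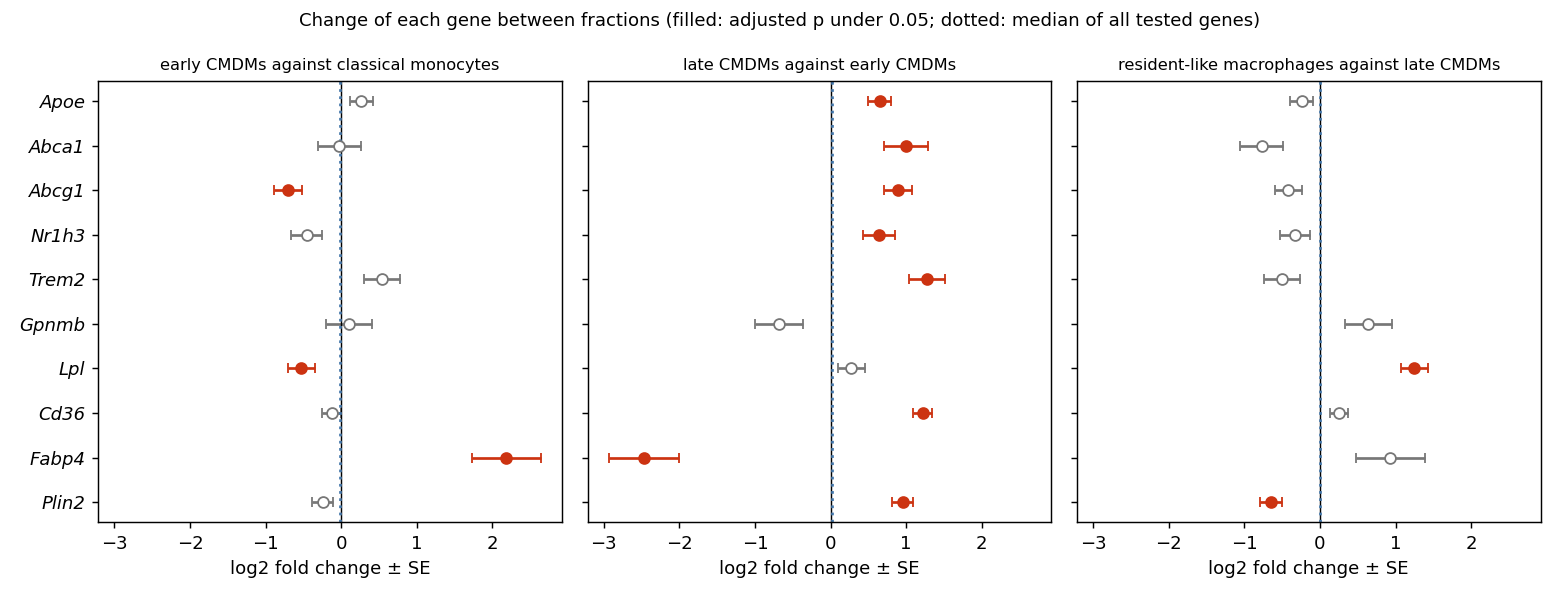
Log2 fold change ± SE of the 10 genes in 3 comparisons, with called genes as filled points and the median of all tested genes as a dotted line close to 0. Late against early CMDMs has 7 filled points to the right and *Fabp4* to the left, where the other comparisons have 3 and 2 filled points. The leukocyte scaling, which moves the median gene to 1.73, -0.87 and -0.70 in these comparisons, turns *Abcg1* and *Lpl* among the filled points of the first and *Apoe* and *Nr1h3* among those of the second.

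The longer comparisons share libraries with these and add the ends. Against classical monocytes, late CMDMs were higher for 5 genes, *Trem2*, *Cd36*, *Abca1*, *Apoe* and *Plin2*, and lower for 0, beside 18.1% and 17.5% of all tested genes. *Csf1r* (1.13), *Adgre1* (1.25) and *Cd68* (0.94) were also called higher there, and *Ptprc* (-1.87) and *Lyz2* (-0.53) lower. Of the fibroblast markers 6 of 6 were called lower, and of the lymphatic endothelial markers 5 of 5 higher. Their part in the members' changes was not tested. Resident-like macrophages were higher than classical monocytes for 4 genes, *Cd36*, *Trem2*, *Lpl* and *Apoe*, and lower for 0, beside 10.8% and 12.9% of all tested genes. At an unadjusted p under 0.05 in edgeR, and with DESeq2, 0 members were lower in either comparison. The 0 did not hold under every alternative. *Gpnmb* was called lower in late CMDMs than in classical monocytes in a fit of these 6 libraries (-0.56) and without resident-like macrophage replicate 1 (-0.57). Against early CMDMs, resident-like macrophages were higher for 5 genes, *Lpl*, *Cd36*, *Trem2*, *Abcg1* and *Apoe*, and lower for *Fabp4*, beside 21.4% and 25.1% of all tested genes. In this last comparison the leukocyte scaling turned all 5, *Abcg1* to -1.08 and *Lpl* to -0.08 among them, with the median gene at -1.57, and without early CMDM replicate 2 the number called fell from 6 to 3. Over all tested genes, leaving out that library gave 3848 higher and 4869 lower, against 4736 and 5561 with it.

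The efflux genes were led by *Apoe*, the apolipoprotein that carries cholesterol out of macrophages (chromosome 7, 19696109 to 19699188 of GRCm38). *Apoe* had 3023, 3334 and 5037 CPM in the classical monocyte libraries 1 to 3, 4692, 4318 and 4693 CPM among early CMDMs, 7533, 7476 and 6482 CPM in late CMDMs and 6306, 5932 and 5946 CPM in resident-like macrophages. All libraries of late CMDMs stood above all others, and classical monocyte replicate 3 was above all 3 early CMDM libraries. Its change was 0.65 (SE 0.16, edgeR adjusted p = 0.00411) in late against early CMDMs, 0.92 (SE 0.16, adjusted p = 0.000229) in late CMDMs against classical monocytes and 0.67 (SE 0.16, adjusted p = 0.00415) in resident-like macrophages against classical monocytes. In the order of the means, late CMDMs and resident-like macrophages did not differ beyond their spread (adjusted p = 0.277), nor did early CMDMs and classical monocytes (adjusted p = 0.178). The difference of resident-like macrophages from early CMDMs, 0.41 (SE 0.16, adjusted p = 0.0409), was lost when any 1 of 7 libraries was left out (lowest 0.37, without early CMDM replicate 2) and with scaling by library size (0.25) or DEGES (0.30). Per kilobase of its longest coding transcript, *Apoe* was the highest of the 10 genes in every fraction, with 2697 to 5088 CPM per kilobase.

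*Abca1*, the transporter that loads cholesterol onto lipid-poor apolipoproteins (chromosome 4, 53030787 to 53159895), had 181, 202 and 399 CPM in classical monocytes, 245, 185 and 341 CPM among early CMDMs, 496, 471 and 570 CPM in late CMDMs and 374, 266 and 261 CPM in resident-like macrophages. All libraries of late CMDMs were above the rest, and the other 3 fractions overlapped. Its rise from early to late CMDMs was 1.00 (SE 0.29, adjusted p = 0.0191), and from classical monocytes to late CMDMs 0.98 (SE 0.29, adjusted p = 0.0193). The first was not called without early CMDM replicate 1 (0.96), early CMDM replicate 2 (0.80) or late CMDM replicate 3 (0.91) nor with no filter on low counts (0.99), and the second without classical monocyte replicate 1 (0.77), classical monocyte replicate 2 (0.82) or late CMDM replicate 3 (0.89) nor with no filter (0.98). Without classical monocyte replicate 3 its level in resident-like macrophages was called above classical monocytes, at 0.65.

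*Abcg1*, which exports cholesterol to mature HDL particles (chromosome 17, 31057675 to 31117988), was lowest in early CMDMs. It had 120, 97.5 and 127 CPM in classical monocytes, 72.6, 48.5 and 90.3 CPM among early CMDMs, 146, 108 and 138 CPM in late CMDMs and 107, 93.8 and 91.8 CPM in resident-like macrophages. The early CMDM libraries lay below all others, and late CMDMs overlapped with classical monocytes. It fell by 0.71 (SE 0.18, adjusted p = 0.00548) from classical monocytes to early CMDMs and rose by 0.89 (SE 0.18, adjusted p = 0.00169) to late CMDMs, where it did not differ from classical monocytes beyond the spread (0.18, adjusted p = 0.477). Its higher level in resident-like macrophages than in early CMDMs, 0.47 (adjusted p = 0.0471), was lost when any 1 of 9 libraries was left out (lowest 0.26, without early CMDM replicate 2) and with DEGES (0.36), library size (0.31) or no filter (0.46).

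*Nr1h3*, the receptor itself (chromosome 2, 91184061 to 91202834), was the lowest of the 10 genes per kilobase in every fraction, at 2.86 to 4.48 CPM per kilobase of its longest transcript. The first and last place of *Apoe* and *Nr1h3* were the same per longest transcript, per longest coding transcript and per joined exons, of which the second was added after seeing that the longest transcripts of *Fabp4* and *Trem2* keep introns. It had 7.81, 6.26 and 9.35 CPM in classical monocytes, 5.56, 4.92 and 6.57 CPM among early CMDMs, 8.83, 8.74 and 9.09 CPM in late CMDMs and 9.15, 4.97 and 6.99 CPM in resident-like macrophages. All libraries of late CMDMs lay within 8.74 to 9.09 CPM, while the resident-like libraries spread from 4.97 CPM, within the early CMDM range, to 9.15 CPM, above the late CMDM range. The rise from early to late CMDMs was 0.64 (SE 0.21, adjusted p = 0.0264), and it was not called without early CMDM replicate 1 (0.62) or 2 (0.54) or without late CMDM replicate 1 (0.65), 2 (0.65) or 3 (0.63). From classical monocytes to early CMDMs the change was -0.46 (adjusted p = 0.086), and it passed the test without classical monocyte replicate 2 (-0.59) or resident-like macrophage replicate 2 (-0.49). Without the latter library it also passed in resident-like macrophages against early CMDMs, at 0.55.

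*Trem2* (chromosome 17, 48346401 to 48354147) had the largest rise into late CMDMs. It had 70.6, 60.5 and 109 CPM in classical monocytes, 112, 82.9 and 155 CPM among early CMDMs, 295, 241 and 315 CPM in late CMDMs and 228, 167 and 206 CPM in resident-like macrophages. Every library of low Ly6C was above every library of high Ly6C, the late CMDM libraries were all above the resident-like ones, and early CMDMs overlapped with classical monocytes. It rose by 1.28 (SE 0.24, adjusted p = 0.000988) from early to late CMDMs, by 1.82 (SE 0.24, adjusted p = 5.27e-05), 3.54-fold, from classical monocytes to late CMDMs and by 1.32 (SE 0.24, adjusted p = 0.00102) from classical monocytes to resident-like macrophages. From classical monocytes to early CMDMs the change of 0.54 (adjusted p = 0.0799) did not pass. It did with DESeq2 (0.54), DEGES (0.64) and without classical monocyte replicate 3 (0.84) or early CMDM replicate 2 (0.75). Resident-like macrophages were 0.78 above early CMDMs (adjusted p = 0.0156), a call lost without early CMDM replicate 2 (0.58) or resident-like macrophage replicate 1 (0.67) and with no filter (0.77).

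*Gpnmb* (chromosome 6, 49036546 to 49070929) did not follow *Trem2*. It had 54.9, 43.1 and 39.1 CPM in classical monocytes, 57.3, 41.5 and 48.3 CPM among early CMDMs, 40.0, 23.1 and 29.1 CPM in late CMDMs and 76.5, 33.8 and 32.8 CPM in resident-like macrophages. All libraries of late CMDMs were below the early ones, and resident-like replicate 1 stood alone above every other library, at 76.5 CPM. The change from early to late CMDMs was -0.68 (SE 0.31, adjusted p = 0.126). In a fit of the 6 libraries compared it was called lower in late CMDMs than in early CMDMs (-0.67, adjusted p = 0.0145) and in classical monocytes (-0.56, adjusted p = 0.0496). Without resident-like macrophage replicate 1 it was called in late CMDMs against early CMDMs (-0.68) and against classical monocytes (-0.57) and in resident-like macrophages against early CMDMs (-0.56).

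*Plin2*, the perilipin of macrophage lipid droplets (chromosome 4, 86648386 to 86670060), was highest in late CMDMs. It had 263, 264 and 337 CPM in classical monocytes, 246, 191 and 293 CPM among early CMDMs, 478, 444 and 493 CPM in late CMDMs and 331, 284 and 290 CPM in resident-like macrophages. All libraries of late CMDMs stood above all the others, whose 3 fractions overlapped. It rose by 0.96 (SE 0.14, adjusted p = 7.61e-05) from early to late CMDMs and was 0.71 (SE 0.14, adjusted p = 0.000836) higher in late CMDMs than in classical monocytes. It fell by 0.65 (SE 0.14, adjusted p = 0.00264) from late CMDMs to resident-like macrophages. Without early CMDM replicate 3 its change from classical monocytes to early CMDMs was called at -0.39 and that of resident-like macrophages against early CMDMs at 0.47.

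The promoters of 3 genes that rose together from early to late CMDMs are shown, 1 each of the efflux, storage and TREM2 groups. RefSeq start sites on GRCm38.p6 were matched for 7 of the 10 members, without *Abcg1*, *Lpl* and *Fabp4*. Each sequence runs from 250 bases before the start site to 10 bases after it, on the strand of the gene, at chr4:53159886-53160145 for *Abca1* (minus strand), chr4:86670050-86670309 for *Plin2* (minus strand) and chr17:48346151-48346410 for *Trem2* (plus strand). Capitals mark matches, on either strand, to the nuclear receptor half-site AGGTCA, the spaced LXR element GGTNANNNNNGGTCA, the E-box CACGTG of the MITF and TFE factors and the PU.1 core GAGGAA.

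Abca1: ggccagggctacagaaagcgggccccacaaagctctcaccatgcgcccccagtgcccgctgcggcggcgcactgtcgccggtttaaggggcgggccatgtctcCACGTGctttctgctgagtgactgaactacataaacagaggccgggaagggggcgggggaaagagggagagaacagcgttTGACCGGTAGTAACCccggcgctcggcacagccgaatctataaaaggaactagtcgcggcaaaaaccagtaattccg
Plin2: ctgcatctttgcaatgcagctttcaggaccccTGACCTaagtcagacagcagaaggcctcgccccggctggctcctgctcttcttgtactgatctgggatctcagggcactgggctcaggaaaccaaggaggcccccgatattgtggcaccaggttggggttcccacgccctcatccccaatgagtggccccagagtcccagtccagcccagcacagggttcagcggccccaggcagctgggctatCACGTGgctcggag
Trem2: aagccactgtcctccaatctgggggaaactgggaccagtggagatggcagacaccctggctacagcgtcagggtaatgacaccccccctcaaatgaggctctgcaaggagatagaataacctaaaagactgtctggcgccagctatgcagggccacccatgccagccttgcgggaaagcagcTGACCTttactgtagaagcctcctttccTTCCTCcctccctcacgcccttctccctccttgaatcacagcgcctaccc

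The *Abca1* window held the spaced LXR element at -67 to -53, counted from the start site, on the opposite strand, and an E-box at -147 to -142. The spaced element is found in 0.207% and the E-box in 7.15% of 32851 windows of 300 bases, and its letters were chosen with the *Abca1* element known, so that this match is no finding. The *Plin2* window held an E-box across the start site, at -4 to 2, and a half-site at -218 to -213. The *Trem2* window held a half-site at -68 to -63 and a PU.1 core at -40 to -35. The half-site is found in 16.3% and the PU.1 core in 28.3% of all windows, so that matches to these short motifs are frequent. *Cd36* had a half-site, and *Apoe* and *Nr1h3* had PU.1 cores, while the C/EBP motif TTGCNNCAA, found in 2.08% of windows, matched none of the 7 genes. These matches are letters in a window and were not tested against the levels.

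The uptake genes did not move as a group. *Cd36*, the fatty acid translocase and scavenger receptor (chromosome 5, 17781690 to 17888801), separated the fractions by Ly6C. It had 73.8, 69.0 and 60.7 CPM in classical monocytes, 64.4, 57.8 and 64.6 CPM among early CMDMs, 152, 161 and 123 CPM in late CMDMs and 177, 195 and 148 CPM in resident-like macrophages. Every Ly6Clo library was above every Ly6Chi library, with overlap within each pair. The change was 1.22 (SE 0.13, adjusted p = 2.12e-06) in late against early CMDMs and 1.35 (SE 0.13, adjusted p = 6.65e-07) in resident-like macrophages against classical monocytes. Late CMDMs and resident-like macrophages (0.25, adjusted p = 0.143) and classical monocytes and early CMDMs (-0.12, adjusted p = 0.453) did not differ beyond their spread. On the leukocyte scale the lead of resident-like macrophages over early CMDMs, 1.48 under TMM, turned to -0.13, with the median gene at -1.57.

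*Lpl*, the lipase that releases fatty acids from lipoproteins (chromosome 8, 68880491 to 68907448), was the gene of resident-like macrophages. It had 162, 102 and 117 CPM in classical monocytes, 103, 76.4 and 85.0 CPM among early CMDMs, 127, 97.3 and 96.4 CPM in late CMDMs and 299, 244 and 218 CPM in resident-like macrophages. All resident-like libraries were above all other libraries, and the other fractions overlapped. It was 1.25 (SE 0.18, adjusted p = 8.51e-05) above late CMDMs, 1.00 (SE 0.17, adjusted p = 0.000515) above classical monocytes and 1.52 (SE 0.18, adjusted p = 4.09e-06), 2.88-fold, above early CMDMs. On the leukocyte scale the first remained called, at 0.55, and the last turned to -0.08. Its lower level in early CMDMs than in classical monocytes, -0.53 (adjusted p = 0.0229), was not called without classical monocyte replicate 1 (-0.30), early CMDM replicate 2 (-0.42) or early CMDM replicate 3 (-0.49), with DEGES (-0.44) or with no filter (-0.51). The Langerhans and dendritic cell markers read (*Cd207*, *Epcam*, *Flt3*, *Zbtb46* and *Cd209a*) were also higher in resident-like macrophages. They summed there to 1473 to 1719 CPM, against 216 to 324 CPM in late CMDMs, with 5 of 5 called higher and none at 0 throughout a fraction, and their part in the level of *Lpl* was not tested.

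*Fabp4*, the fatty acid-binding protein of adipocytes, macrophages and capillary endothelium (chromosome 3, 10204088 to 10208576), had its highest mean in early CMDMs. Its lowest mean was in late CMDMs. *Gpnmb* had the same highest and lowest fractions, at 49.0 and 30.7 CPM, but was called in none of the 6 comparisons. *Fabp4* had 22.3, 31.8 and 17.4 CPM in classical monocytes, 102, 111 and 113 CPM among early CMDMs, 17.8, 18.3 and 22.5 CPM in late CMDMs and 13.8, 68.0 and 30.5 CPM in resident-like macrophages. The early CMDM libraries were above all others, and resident-like macrophages spread from the lowest library of all to the highest outside early CMDMs. It rose by 2.19 (SE 0.45, adjusted p = 0.00249), 4.55-fold, from classical monocytes to early CMDMs and fell by 2.47 (SE 0.46, adjusted p = 0.00201) to late CMDMs, and both calls held without any single library. Resident-like macrophages were 1.54 below early CMDMs (SE 0.44, adjusted p = 0.015), which was not called in the fit of these 6 libraries (-1.52). Without resident-like macrophage replicate 1, *Fabp4* was called higher there than in late CMDMs (1.33) and in classical monocytes (1.05), and without replicate 2 the latter turned to -0.10.

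Markers of other cells that can express *Fabp4* were read beside it. The vascular endothelial markers (*Cdh5*, *Pecam1*, *Kdr*, *Gpihbp1*, *Egfl7* and *Flt1*) summed to 158 to 164 CPM among early CMDMs and to 83.7 to 88.4 CPM in classical monocytes, with 4 of 6 called higher and 1 lower. In late CMDMs they summed to 136 to 155 CPM, with 2 of 6 called lower than in early CMDMs. In resident-like macrophages they summed to 52.3 to 88.1 CPM, with 5 of 6 called lower than in early CMDMs. The adipocyte markers (*Adipoq*, *Plin1*, *Cidec*, *Lep*, *Retn* and *Cfd*) summed to 11.6 to 28.2 CPM among early CMDMs, 4.86 to 11.5 CPM in classical monocytes, 4.37 to 5.10 CPM in late CMDMs and 4.82 to 6.30 CPM in resident-like macrophages. *Adipoq* was at 1.39 to 4.38 CPM among early CMDMs, and *Lep* was at 0 in late CMDMs and resident-like macrophages. The part of these cells in the level of *Fabp4* was not tested.

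The 3 genes nearest to *Fabp4* in pattern were *Selp*, which encodes P-selectin of activated endothelium and platelets, *Tspan7* and *Hopx*. Nearness was the root mean square difference of the centred log2 CPM over the 12 libraries, which share depth and sorting, among 9658 genes, and these 3 differed from *Fabp4* by 0.44 to 0.49. *Selp* had 49.2 to 89.4 CPM among early CMDMs and, for late CMDMs, 7.65 to 9.22 CPM, and its resident-like replicate 2, at 30.8 CPM, stood above the others at 7.80 and 8.81 CPM, as did that of *Fabp4*. The paralog *Fabp5*, whose product also binds fatty acids, had another pattern, with 146 to 173 CPM in classical monocytes, 331 to 437 CPM among early CMDMs, 429 to 647 CPM in late CMDMs and 140 to 219 CPM in resident-like macrophages. It rose with *Fabp4* into early CMDMs, by 1.27 (SE 0.17, adjusted p = 2.26e-05), and rose again by 0.49 (SE 0.17, adjusted p = 0.0381) where *Fabp4* fell.

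**Figure D4:**
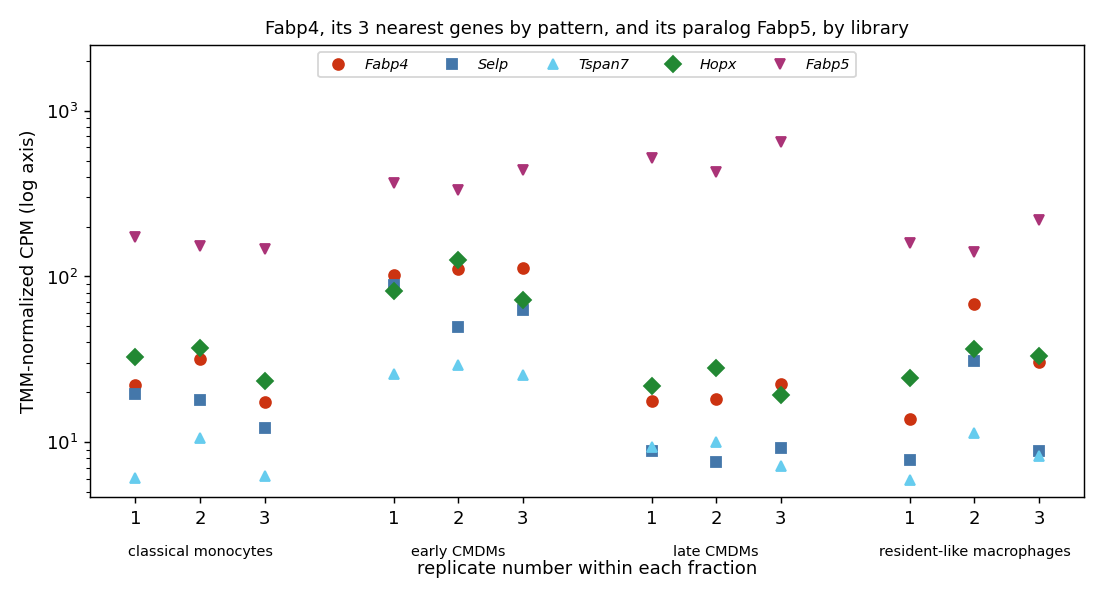
TMM-normalized CPM (log axis) of *Fabp4*, its 3 nearest genes by pattern and its paralog *Fabp5* in each of the 12 libraries. *Fabp4*, *Selp*, *Tspan7* and *Hopx* are high in the 3 early CMDM libraries, and *Selp* and *Fabp4* are raised in resident-like replicate 2, at 30.8 and 68.0 CPM, while *Fabp5* stays high in late CMDMs.

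The other members had neighbours at smaller distances, which are not scaled by how much a gene varies. The root mean square of the centred values was 1.09 for *Fabp4* and 0.33 (*Nr1h3*) to 0.77 (*Trem2*) for the others. For *Plin2* these were *Mpp1*, *Tgfbr2*, which encodes the type II TGF-β receptor, and *Wdr81*, at 0.0759 to 0.0952, and *Rragc* was at 0.125 from *Apoe*. *Trem2* was nearest to *Cd300ld4*, *Cd300ld2* and *Cd300ld5*, at 0.127 to 0.135, paralogs of the CD300 receptor family among which reads could be split. *Abca1* was nearest to *Slc7a8*, *Xylt2* and *Acp2*, a lysosomal acid phosphatase, and *Abcg1* to *Orai3*, *Unc93b1* and *Aldh3b1*. *Nr1h3* was nearest to *Ripor1*, *Rad9a* and *Tbcel*, *Cd36* to *Prkar2b*, *Klf2* and *S100a1*, *Lpl* to *Ywhah*, *Trerf1* and *Lipe*, which encodes hormone-sensitive lipase, and *Gpnmb* to *St3gal2* and *Habp4*. Among the members themselves *Abca1* and *Plin2* were each other's nearest, at 0.235, as were *Abcg1* and *Nr1h3*, at 0.237, and *Fabp4* was farthest from the rest, at 1.13 from its nearest member, *Gpnmb*. All 30 genes were the same with a smaller prior count.

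Both Ly6C levels hold a PD-L2hi and a PD-L2lo fraction. PD-L2 is a sort marker here, so that these are differences between sorted fractions and not effects of PD-L2. Whether they depended on Ly6C was tested as an interaction, early CMDMs minus classical monocytes less late CMDMs minus resident-like macrophages. It was called for 4 of the 10 genes, higher for *Fabp4* and *Lpl* and lower for *Abcg1* and *Plin2*, beside 11.8% of all tested genes higher and 10.3% lower. *Fabp4* was higher in PD-L2hi cells by 2.19 among Ly6Chi fractions and was at -0.93 among Ly6Clo fractions, where it did not pass the test. *Abcg1* was at -0.71 and 0.42 and *Plin2* at -0.24 and 0.65 in the same order, and of these 4 differences that of *Plin2* among Ly6Chi fractions (adjusted p = 0.175) and that of *Abcg1* among Ly6Clo fractions (adjusted p = 0.105) did not pass the test on their own. *Lpl* was lower in PD-L2hi cells at both levels, at -0.53 and -1.25. *Trem2*, at 0.54 and 0.50, and *Apoe*, at 0.27 and 0.24, had interactions of 0.04 (SE 0.33) and 0.03 (SE 0.22). On the leukocyte scale, where the median gene was at 1.02, the interaction of *Plin2* was 0.13 and that of *Abcg1* -0.12, and neither passed the test. In the same contrast under TMM, 5 of 6 keratinocyte markers were called higher and 0 lower, and 4 of 6 fibroblast markers lower. *Ptprc* was at -1.57. The part of other cells in these interactions was not tested.

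**Figure D5:**
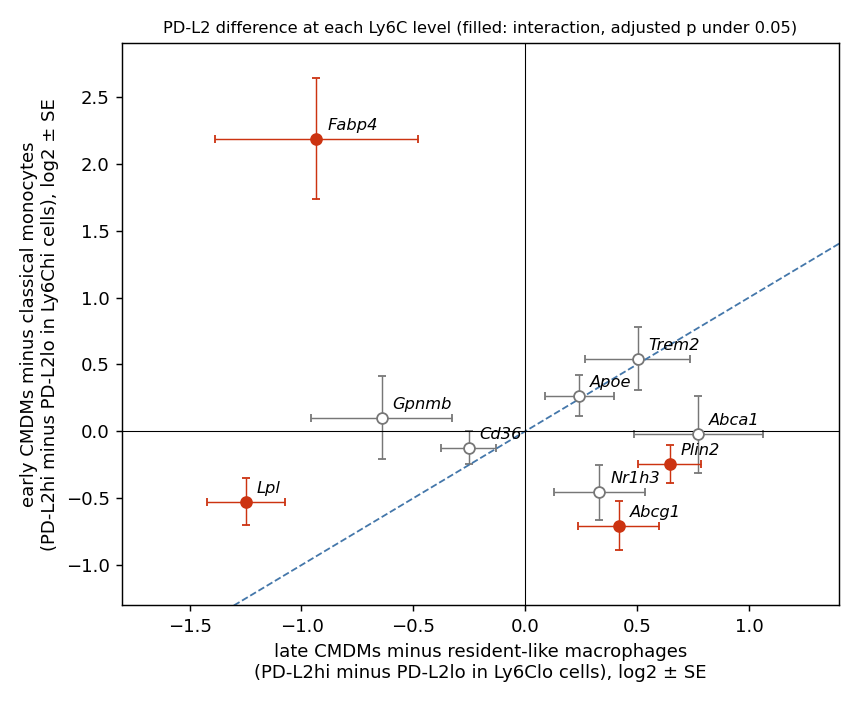
Difference between PD-L2hi and PD-L2lo fractions (log2 ± SE) among Ly6Clo cells on the horizontal axis and among Ly6Chi cells on the vertical axis, with the line of equal differences dashed and genes with a called interaction filled. *Trem2* and *Apoe* lie within their SE of the line, *Fabp4* and *Lpl* above it and *Abcg1* and *Plin2* below it, and on the leukocyte scale the interaction of *Plin2* turned to 0.13.

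Other genes of the same pathways were read from lists, and their counts are given for late against early CMDMs first, where 14.4% of all tested genes were higher and 17.5% lower. For every list below, the shares were 24.2% and 20.6% in early CMDMs against classical monocytes. In resident-like macrophages against late CMDMs they were 12.7% and 15.5%. Of 12 LXR partners and targets, 4 were higher and 3 lower. *Pltp*, the phospholipid transfer protein, had the highest change, 1.26 (SE 0.21, adjusted p = 0.000392), from 320 to 540 CPM among early CMDMs up to late CMDMs, at 955 to 1198 CPM, and *Apoc1*, an apolipoprotein encoded beside *Apoe*, the lowest, -0.70. *Apoc1* had 8.40 to 17.4 CPM in classical monocytes, 86.6 to 120 CPM among early CMDMs, 58.3 to 64.3 CPM in late CMDMs and 7.10 to 12.7 CPM in resident-like macrophages, so that it was high in both PD-L2hi fractions. Its fall from early to late CMDMs was not called without early CMDM replicate 2 (-0.54), late CMDM replicate 1 (-0.67) or late CMDM replicate 3 (-0.68). *Apoc2* was the lowest of this list in early CMDMs against classical monocytes, at -1.19, where 4 were higher and 4 lower, and *Abca7*, another ABC transporter, the highest in resident-like macrophages against late CMDMs, at 0.78, where 2 were higher and 6 lower. With the leukocyte scaling 1 was higher and 9 lower from early to late CMDMs, beside 205 and 15472 of the 22118 tested genes.

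Of 14 genes of lipid uptake and the PPAR axis, 6 were higher and 3 lower in late than in early CMDMs, with the scavenger receptor *Msr1* highest, at 1.01, and the acyl-CoA synthetase *Acsl1* lowest, at -1.88. *Msr1* fell by 2.39 (SE 0.24, adjusted p = 1.96e-06) from classical monocytes, at 77.0 to 127 CPM, to early CMDMs, at 14.6 to 27.2 CPM. In that comparison 6 were higher and 7 lower, and the VLDL receptor gene *Vldlr* was highest, at 1.71. Between late CMDMs and resident-like macrophages 3 were higher and 6 lower. The lipase inhibitor *Angptl4*, at 17.9 to 35.1 CPM in late CMDMs and 3.76 to 6.14 CPM in resident-like macrophages, was lowest there, at -2.32, in the fractions between which *Lpl* rose. *Lrp1*, an apolipoprotein E receptor, was highest, at 0.61, and its call was lost when any 1 of 5 of the 6 libraries compared was left out (0.45, without resident-like macrophage replicate 1, to 0.64). Scaled by leukocyte genes, 0 were higher and 9 lower from early to late CMDMs, beside 205 and 15472 of the 22118 tested genes.

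Of 14 genes of lipid droplets and lipolysis, 2 were higher and 4 lower in late than in early CMDMs. *Soat1*, which makes cholesterol esters, rose by 0.93 (SE 0.11, adjusted p = 1.02e-05), from 90.0 to 124 CPM among early CMDMs up to late CMDMs, at 194 to 214 CPM. *Dgat1*, which makes triglycerides, fell by 1.66 from classical monocytes, at 77.6 to 87.9 CPM, to early CMDMs, at 23.8 to 30.5 CPM, where 5 of the list were higher and 4 lower. The adipocyte gene *Cidec* was highest in that comparison, at 1.82, lowest in late against early CMDMs, at -1.69, and lowest again in resident-like macrophages against late CMDMs, at -3.01. It had 3.83, 4.73 and 0.948 CPM among early CMDMs, the third within reach of late CMDMs, and at most 0.182 CPM in resident-like macrophages, and its fall to late CMDMs was not called without early CMDM replicate 2 (-1.29), the highest library. *G0s2*, an inhibitor of lipolysis, was the highest in resident-like macrophages, at 1.53, where 3 were higher and 5 lower, at levels under those of *Plin1*'s highest library (3.52 CPM), and its call was lost when any 1 of 5 libraries was left out (1.19 to 1.61). Among the perilipins, *Plin3* was higher in early CMDMs than in classical monocytes, by 0.70, where *Plin2* did not pass the test, and did not pass from early to late CMDMs (0.08), where *Plin2* rose. *Plin1*, *Plin4* and *Plin5* were at 3.52 CPM or less in every library. Under the leukocyte scaling 0 of the list were higher and 10 lower from early to late CMDMs, beside 205 and 15472 of the 22118 tested genes.

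The TREM2 list held 15 genes of its adaptor pathway and of the signature of lipid-associated macrophages. In late against early CMDMs 8 were higher and 3 lower, with the protease *Ctsl* highest, at 1.38, and *Axl*, a receptor for dead cells, lowest, at -1.71. *Ctsl* had 3586 to 4970 CPM in late CMDMs, 1210 to 2071 CPM among early CMDMs and 868 to 1142 CPM in resident-like macrophages, and it was the lowest of the list in the last step, at -2.04. From classical monocytes to early CMDMs 3 were higher and 8 lower, with the tetraspanin *Cd9* highest, at 1.60, and the β-glucan receptor *Clec7a* lowest, at -1.89. In resident-like macrophages against late CMDMs 7 were higher and 5 lower. The integrin gene *Itgax*, which encodes CD11c and is also used as a dendritic cell marker, was highest there, at 2.81, with 69.7 to 106 CPM against 11.2 to 12.6 CPM. *Tyrobp*, which encodes DAP12, the adaptor of TREM2, had 842 to 1117 CPM in classical monocytes, 253 to 410 CPM among early CMDMs, 571 to 646 CPM in late CMDMs and 626 to 834 CPM in resident-like macrophages, and was named for this role after its values were seen. By the leukocyte scaling 1 of the list was higher and 6 lower from early to late CMDMs, beside 205 and 15472 of the 22118 tested genes.

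Of 11 genes of lysosomal lipid handling and the MITF and TFE factors, 8 were higher and 0 lower in late than in early CMDMs, with a median of 0.66, and 0 of the list were lower in edgeR at an unadjusted p under 0.05. The transcription factor gene *Tfec* was highest, at 1.36 (SE 0.23, adjusted p = 0.000417), with 42.0 to 47.4 CPM in late CMDMs and 12.1 to 24.7 CPM among early CMDMs, and it fell by 1.43 to resident-like macrophages. *Npc2*, the lysosomal cholesterol carrier, was the lowest of the list in early CMDMs against classical monocytes, at -0.58, where 2 were higher and 5 lower, and the sphingomyelinase gene *Smpd1* was the highest, at 0.88. In resident-like macrophages against late CMDMs 1 was higher, *Tfeb* at 0.45, and 4 were lower. On the leukocyte scale 1 was higher and 5 lower from early to late CMDMs, beside 205 and 15472 of the 22118 tested genes. Of the 11, 10 were above the median gene under both scalings, which a common shift leaves in place.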

How the data were processed

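The authors trimmed reads with cutadapt, aligned them with Bowtie2 2.4.5 (per the labels and the study's methods) to Ensembl mouse RNA sequences of GRCm38 and deposited raw counts per gene symbol, transcripts summed. Reads shared by paralogs could be split. No column was normalized. The counts of the 12 libraries were analysed with edgeR 4.0.16 in R 4.3.3 (filterByExpr by fraction, TMM, robust quasi-likelihood fit with 1 coefficient per fraction), with Benjamini-Hochberg adjustment over all genes tested. CPM used the TMM library sizes, and centred log2 CPM used a prior count of 2. Replicates of a fraction differed by 4.24 to 21.9 chi-square per degree of freedom, so that none was a copy. Alternatives were DESeq2 1.42.0, RLE, DEGES (TMM without called genes), library size or 10 leukocyte genes as scaling, other filters and thresholds, a fit of 6 libraries, the replicate block and leaving out each library. Named were all members, the called gene of each pathway list with the highest and lowest change in 3 comparisons, 3 nearest genes per member with a mean log2 CPM of at least 3, and paralogs of *Fabp4* and *Plin2*. Some nearest genes of *Apoe* and *Gpnmb* are not reported here. The members and lists were chosen with earlier results of these data known. The fit was tested on simulated data. Lengths came from GENCODE transcripts of GRCm38 and promoter windows from RefSeq. The limit that a count of 0 allows covers counting error only, while SD, SE and p-values rest on the spread between libraries.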

Additional observations from a re-analysis of the deposited data

Results flagged for a closer look

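The difference between PD-L2hi and PD-L2lo fractions depended on the Ly6C level for 4 of the 10 genes, by the interaction test (edgeR, adjusted over all tested genes). Of all tested genes 11.8% were called higher and 10.3% lower in it. The interaction, Ly6Chi minus Ly6Clo on the log2 scale, was 3.12 (SE 0.64, adjusted p = 0.00549) for *Fabp4*, -1.12 (SE 0.26, adjusted p = 0.00551) for *Abcg1*, -0.89 (SE 0.20, adjusted p = 0.00392) for *Plin2* and 0.72 (SE 0.25, adjusted p = 0.0477) for *Lpl*. The value of *Lpl* was not called under 11 of the alternatives, among them when any 1 of 8 libraries was left out. Those of *Abcg1* and *Plin2* did not pass under the leukocyte scaling, at -0.12 and 0.13.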

How the results depend on the processing

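Scaling by 10 leukocyte genes changed how many members were called. It gave 10 in place of 3 for early CMDMs against classical monocytes, 4 in place of 8 for late against early CMDMs, 8 in place of 5 for late CMDMs against classical monocytes and 8 in place of 2 for resident-like macrophages against late CMDMs. Over all tested genes it called 205 higher and 15472 lower in late against early CMDMs, against 3174 and 3871 under TMM. It called 20165 higher and 465 lower in early CMDMs against classical monocytes. In late CMDMs against classical monocytes these were 15168 and 1078, and in resident-like macrophages against late CMDMs 576 and 13566. Library size alone called 1859 higher and 4780 lower in resident-like macrophages against late CMDMs. An absolute log2 fold change of at least 1 left 1, 3, 2 and 1 member in these comparisons, 2 in resident-like macrophages against classical monocytes, 3 against early CMDMs and 2 for the interaction. A threshold of 0.1 gave 5 in early CMDMs against classical monocytes, and one of 0.01 gave 2 in resident-like macrophages against early CMDMs. Library size alone gave 4 in resident-like macrophages against late CMDMs. There a fit of 6 libraries gave 5, beside 2968 of its 20856 tested genes higher and 3644 lower. Leaving out each library in turn gave 2 to 5 members in early CMDMs against classical monocytes, 6 to 9 in late against early CMDMs, 4 to 6 in late CMDMs against classical monocytes, 2 to 3 in resident-like macrophages against late CMDMs, 4 to 5 against classical monocytes, 3 to 6 against early CMDMs and 3 to 4 for the interaction. Over all tested genes it gave 4756 to 5541 higher and 3700 to 4905 lower in the first comparison. In late against early CMDMs it gave 2181 to 3639 higher and 2985 to 4109 lower. Fits without a library hold fewer samples, and for the other settings the cause was not tested.

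The labels tie the replicate numbers to no shared animal or batch, and 4 of 18 same-numbered pairs had correlations over 0.1 (-0.0987 to 0.248, median 0.0589, against -0.0314 for other numbers), so the numbers were not used as a pairing. That 9 of 12 libraries correlated best with their own number is a hint of one from the data. The replicate block gave 5 members in early CMDMs against classical monocytes, adding *Trem2* and *Nr1h3*, 10 in late against early CMDMs, adding *Gpnmb* and *Lpl*, 6 in late CMDMs against classical monocytes, adding *Gpnmb*, and 6 in resident-like macrophages against late CMDMs, adding *Abca1*, *Abcg1*, *Trem2* and *Gpnmb*. Over all 22118 tested genes the block called 5543 higher and 4781 lower, then 3473 and 4092, 4371 and 4066, and 3004 and 3789. Each number was above that without the block. The block also added *Plin2* in resident-like macrophages against early CMDMs and *Nr1h3* and *Gpnmb* for the interaction, and it removed no member's call.

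The sign of these log2 values turned. With DEGES, in early CMDMs against classical monocytes, *Abca1* was at 0.0723. With the leukocyte scaling, in early CMDMs against classical monocytes, *Abca1* was at 1.68, *Abcg1* at 1.00, *Nr1h3* at 1.27, *Lpl* at 1.23, *Cd36* at 1.62, *Plin2* at 1.48, *Apoc2* at 0.51, *Dgat1* at 0.0729 and *Npc2* at 1.15. In late CMDMs against early CMDMs, *Apoe* was at -0.25, *Nr1h3* at -0.23 and *Lpl* at -0.63. In late CMDMs against classical monocytes, *Gpnmb* was at 0.26, *Lpl* at 0.60 and *Fabp4* at 0.56. For resident-like macrophages against late CMDMs, *Gpnmb* was at -0.0606, *Cd36* at -0.46, *Lrp1* at -0.0928 and *Tfeb* at -0.26. For resident-like macrophages against classical monocytes, *Nr1h3* was at 0.0025. In resident-like macrophages against early CMDMs, *Apoe* was at -1.20, *Abca1* at -1.33, *Abcg1* at -1.08, *Nr1h3* at -1.27, *Trem2* at -0.77, *Lpl* at -0.081, *Cd36* at -0.13 and *Plin2* at -1.26. In the interaction, *Abca1* was at 0.20, *Nr1h3* at 0.23 and *Plin2* at 0.13. With library size only, in resident-like macrophages against classical monocytes, *Gpnmb* was at -0.10 and *Plin2* at -0.10. In the interaction, *Apoe* was at -0.11, *Trem2* at -0.095 and *Cd36* at -0.0144. With the replicate block, in resident-like macrophages against classical monocytes, *Gpnmb* was at -0.0158. Without each library in turn, in early CMDMs against classical monocytes, the values ran for *Abca1* from -0.27 to 0.42 and *Gpnmb* from -0.0122 to 0.27. In resident-like macrophages against classical monocytes, the values ran for *Nr1h3* from -0.38 to 0.0628, *Gpnmb* from -0.45 to 0.28, *Fabp4* from -0.10 to 1.05 and *Plin2* from -0.00459 to 0.19. In resident-like macrophages against early CMDMs, the values ran for *Gpnmb* from -0.56 to 0.20. In the interaction, the values ran for *Apoe* from -0.10 to 0.28 and *Trem2* from -0.21 to 0.33.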
